A study of Mus musculus with 9 samples.

Results

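The 6 genes described here encode transporters that carry bile salts, phospholipid and organic anions across the hepatocyte membrane: Slc10a1, Slco1a1, Slco1b2, Abcb11, Abcb4 and Abcc2. They were chosen by name as the main bile salt and anion carriers of the liver, and every peak that the deposited table assigned to them was taken, 125 of 92645 unique peaks. A peak is a stretch of RNA, 70 bases long in 116 of the 125, to which reads bound by Argonaute (AGO) were assigned. Slc10a1 held 13 peaks, Slco1a1 10, Slco1b2 22, Abcb11 24, Abcb4 27 and Abcc2 29. In AGO CLIP-seq, RNA held by AGO is joined to it by ultraviolet light, pulled down with an antibody and sequenced, and microRNAs are what guide AGO to its targets. The 9 libraries came from livers of 4 miR-122 KO mice (1 female, 3 males) and 5 floxed littermate controls (3 females, 2 males), all aged 6 weeks. Neither the labels nor the design text names the driver of the deletion or the cells it reached.

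Hepatocytes take bile salts up from the blood at the sinusoidal membrane and export them into bile at the canalicular membrane. Slc10a1 (NTCP) is the sodium-dependent bile salt carrier of the sinusoidal side, and Slco1a1 and Slco1b2 are organic anion transporting polypeptides of the same side. Abcb11 is the bile salt export pump, Abcb4 moves phosphatidylcholine to the outer leaflet of the canalicular membrane, and Abcc2 (MRP2) exports conjugated anions such as bilirubin glucuronide. miR-122 is the most abundant microRNA of hepatocytes. A microRNA pairs with its target mainly through its seed, the bases from position 2 to position 8, and AGO crosslinks near the paired site.

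The deposited table lists seed matches of microRNA families under each peak. Of the 125 peaks, 18 held a match to miR-122-5p of any length, 16 of them of the canonical kind and 2 of a class that the file marks with "-B", and 19 (15.2%, against 17.0% of all peaks) held no listed match. The canonical miR-122-5p match was in 12.8% of the transporter peaks and in 9.6% of all peaks, and each of the 6 genes had at least 1. Matches to miR-22-3p were in 14 peaks over all 6 genes (11.2%, against 6.7% of all peaks). Those of the miR-15 family were in 12 (9.6%, against 9.8%) and those of let-7 in 10 (8.0%, against 7.1%). The mature sequences of 8 other microRNAs are shown, since their matches lie in the peaks without miR-122-5p that carried most reads; they were taken from RefSeq (build GRCm38.p6), are written from the 5′ end, and have the seed in capitals.
mmu-miR-29a-3p: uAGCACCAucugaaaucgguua
mmu-miR-194-5p: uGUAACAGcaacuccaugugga
mmu-miR-30a-5p: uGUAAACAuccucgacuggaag
mmu-miR-15a-5p: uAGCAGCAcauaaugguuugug
mmu-miR-103-3p: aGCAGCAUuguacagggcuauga
mmu-miR-148a-3p: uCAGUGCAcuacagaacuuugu
mmu-miR-26a-5p: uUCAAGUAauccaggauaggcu
mmu-let-7a-5p: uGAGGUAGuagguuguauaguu
The seeds of mmu-miR-15a-5p and mmu-miR-103-3p overlap, and peaks of Slc10a1 in its coding sequence held matches to both families.

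Library totals ran from 612479 to 1070610 reads in KO and from 445912 to 1170130 reads in controls. The peak over the miR-122 gene held 3 to 52 reads in KO libraries and 270 to 447 in controls. All 7 hepatocyte markers examined had reads, and they summed to 9613 to 13300 CPM in KO and 18050 to 25840 CPM in controls, where CPM are counts per 1e+06 deposited reads after scaling between libraries (TMM). Of these 7, Alb, Apoa1, Serpina1c, Cps1 and Hnf4a had lower means in KO and Ttr and Tat higher ones. The 8 neuron markers summed to 1260 to 6864 CPM in KO, highest in KO replicate 4, and to 16.1 to 25.5 CPM in controls. The 5 stellate cell markers summed to 793.5 to 1165 CPM in KO and 461 to 623 CPM in controls, the 7 cholangiocyte markers to 73.6 to 105.2 and 28.4 to 73.1 CPM (Krt19, Epcam and Cftr at 0; Spp1 and Krt7 had higher means in KO, 77.4 and 2.86 against 11.7 and 0.984 CPM, and Sox9 and Slc10a2 lower ones, 3.65 and 6.08 against 7.56 and 26.8 CPM), and the 7 Kupffer cell markers to 321 to 476 and 279 to 341 CPM (Adgre1 at 0, its older symbol Emr1 with reads). Among the stellate cell markers Col3a1 differed most (mean 505 CPM in KO and 147 CPM in controls). Lrat, Reln and Dcn had higher means in KO as well, and Des a lower one. Among the Kupffer cell markers Csf1r (181 against 92.6 CPM), Emr1, Cd5l and Marco had higher means in KO, and Clec4f and Vsig4 lower ones. The 5 endothelial markers, all but Pecam1 with lower means in KO, summed to 179.7 to 343 CPM in KO and 333.5 to 430 CPM in controls. The 5 kidney tubule markers were all at 0. Their part in the results was not tested, and in bulk liver, fewer cells of a type and less RNA per cell cannot be told apart. RNA abundance was not analysed here, so a level below is one of AGO-bound RNA, not of the transcript.

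Summed over its peaks, AGO-bound RNA was lower in KO for 5 of the 6 transporters, Slc10a1, Slco1a1, Slco1b2, Abcb11 and Abcc2, by log2 changes from -3.19 to -1.06, and for Abcb4 no difference passed the test. Over all 8856 genes tested, 44.9% passed at an adjusted p under 0.05, 23.7% lower and 21.2% higher in KO, with a median log2 change of 0.05. Changes are KO over control, and every adjusted p for a gene or peak is from edgeR's quasi-likelihood test with sex as a covariate and Benjamini-Hochberg adjustment over the whole table.

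Of the uptake carriers, Slc10a1 had 120.3, 146, 110.7 and 122.4 CPM in KO replicates 1 to 4, against 413, 615, 390, 336 and 219 CPM in control replicates 1 to 5. The highest KO library lay below the lowest control. The means were 124.8 ± 15.002 CPM in KO (SD, n = 4) and 395 ± 144 CPM in controls (n = 5), a log2 change of -1.45 (SE 0.25, adjusted p = 0.000513).

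Slco1a1, whose expression in mouse liver is known to be higher in males, had 2.69 CPM in the female KO library and 29.0, 34.7 and 15.3 CPM in the male KO libraries, against 68.1, 14.2 and 119 CPM in the female controls and 248 and 155 CPM in the male controls. The groups overlapped through the second female control. In males alone every KO library was below both controls. The fitted change was -3.19 (SE 0.51, adjusted p = 0.000325), with means of 20.4 ± 14.4 CPM in KO (n = 4) and 121 ± 88.7 CPM in controls (n = 5). Of its reads, 76 of 85 in KO and 499 of 588 in controls lay in 4 peaks that another annotated gene, Gm30843, also covers, and the Slco1a genes resemble each other, so the assignment of these reads is uncertain.

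Slco1b2 had 706, 1142, 939 and 958 CPM in KO, against 2694, 2946, 2209, 2554 and 2260 CPM in controls. The groups did not overlap. The means were 936 ± 178 and 2533 ± 307 CPM (log2 -1.49, SE 0.21, adjusted p = 0.000125).

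Of the canalicular exporters, Abcb11 had 162, 165, 149 and 140 CPM in KO, against 294, 270, 319, 294 and 433 CPM in controls. The KO values lay close together, and all were below every control (154 ± 11.8 and 322 ± 64.6 CPM, log2 -1.105, SE 0.17, adjusted p = 0.000298). Abcc2 had 234, 303, 203 and 185 CPM in KO, against 606, 504, 623, 534 and 336 CPM in controls. These groups did not overlap either, the nearest values being KO replicate 2 and control replicate 5 (231 ± 51.7 and 521 ± 114 CPM, log2 -1.06, SE 0.22, adjusted p = 0.00186).

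Abcb4, the phospholipid translocator, had 54.8, 70.7, 85.9 and 80.3 CPM in KO, against 79.4, 73.3, 59.1, 49.1 and 70.2 CPM in controls. The groups overlapped over most of their range, with means of 72.9 ± 13.6 and 66.2 ± 12.1 CPM (log2 0.13, SE 0.23, adjusted p = 0.683). The sign of this value changed with the scaling: it was -0.25 with factors from genes without a miR-122-5p match, a scaling that moved the median of all genes to -0.33, and under which the other 5 transporters were lower.

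**Figure D1:**
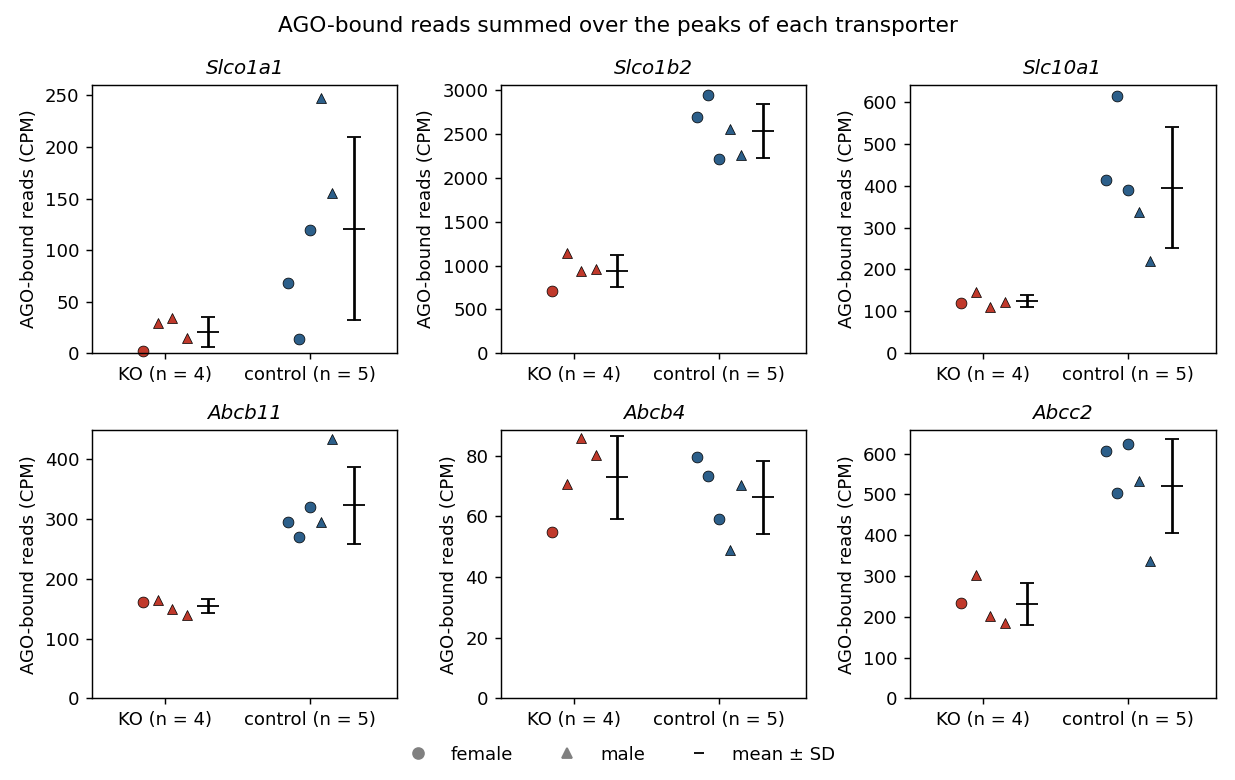
AGO-bound reads in CPM summed over all peaks of each transporter (linear axes from 0), with 1 point per library, circles for females and triangles for males, KO left and control right, and the mean ± SD beside each group. All KO points lie below all control points in Slco1b2, Slc10a1, Abcb11 and Abcc2, the groups overlap in Slco1a1 through 1 female control, and they share their range in Abcb4.

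No difference in the effect of genotype between the sexes passed the threshold in the 6 genes (interaction, adjusted p from 0.881 to 0.942 over 8856 genes). Only 1 KO library was female, so this test had little precision; for Slco1a1 the difference was 1.79 on the log2 scale, males minus females, with an SE of 1.38.

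The peaks with a miR-122-5p match carried very different shares of each gene's reads. In Slco1b2 they took 5.97, 1.51, 2.38 and 2.00% of its reads in KO, against 57.3, 57.9, 54.2, 54.7 and 48.7% in controls. In Abcc2 they took 7.66, 11.1, 6.50 and 7.22% in KO, against 45.9, 50.2, 53.0, 49.1 and 52.6% in controls. In both genes the groups stood far apart, with means of 2.96% ± 2.04 and 54.6% ± 3.66 for Slco1b2 and of 8.12% ± 2.03 and 50.2% ± 2.88 for Abcc2 (SD, n = 4 and 5). Each of these 2 differences had a two-sided exact permutation p of 0.00794, the lowest value possible with 4 against 5 libraries; a share within a gene does not depend on the scaling between libraries.

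In the other 4 genes the share was small in both groups. In Abcb11 it was 3.05% ± 3.41 in KO and 9.52% ± 3.46 in controls (exact permutation p = 0.0317), with KO replicate 3 at 7.22% above the control at 4.90%. In Slc10a1 it was 0.155% ± 0.311 in KO, where 3 libraries had no such read, and 1.31% ± 0.738 in controls (exact permutation p = 0.0317). In Abcb4 (0.595% and 3.72%, exact permutation p = 0.0556) and Slco1a1 (0.595% and 2.94%, exact permutation p = 0.103) the difference did not pass. These are 6 unadjusted tests. With 1 library left out, the Abcb4 difference passed without KO replicate 4 (exact p = 0.0357), the Abcb11 difference stayed under 0.05 only without control replicate 4 or KO replicate 3 (exact p from 0.0536 to 0.0893 without each other library), and the Slc10a1 difference was lost without KO replicate 1, 3 or 4 (exact p = 0.0893 each).

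**Figure D2:**
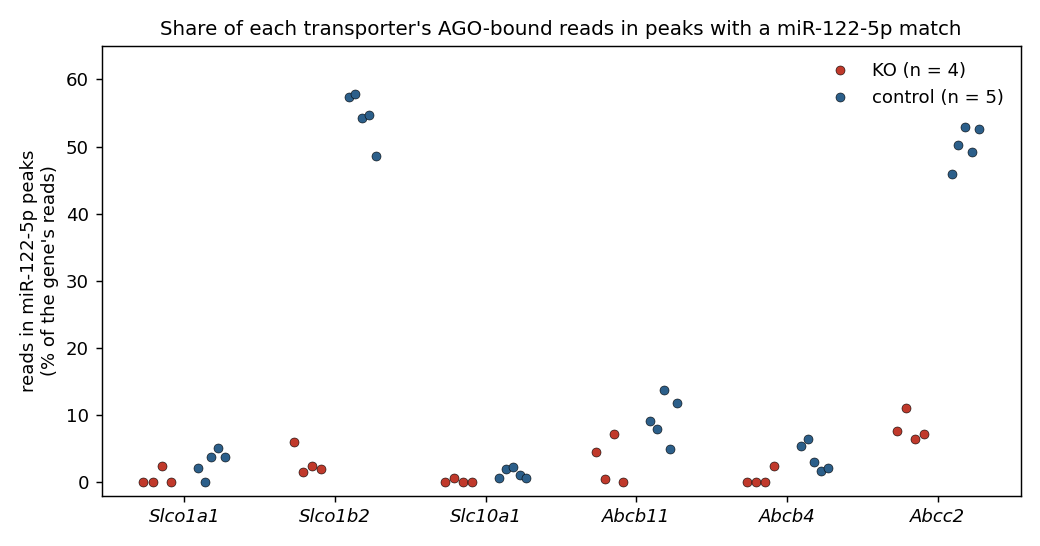
Percent of each transporter's AGO-bound reads that lay in peaks with a miR-122-5p match (vertical axis), with 1 point per library, KO left and control right within each gene. Slco1b2 and Abcc2 controls lie between 45.9 and 57.9% and their KO libraries between 1.51 and 11.1%, while all libraries of the other 4 genes lie at 13.8% or lower.

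With the miR-122-5p peaks left out and scaling factors taken from the remaining sums, 4 of the 6 sums were lower in KO, against a background of 8137 genes of which 31.5% passed, 13.2% lower and 18.3% higher, with a median of 0.11. Slc10a1 (log2 -1.65, SE 0.25, adjusted p = 0.000448), Slco1a1 (-3.35, SE 0.50, adjusted p = 0.000464) and Abcb11 (-1.23, SE 0.17, adjusted p = 0.000255) were lower. These factors alone moved the log2 change of the 4037 tested genes without any miR-122-5p peak by a median of -0.22, so the values are not directly comparable with those over all peaks. With the factors of the sums over all peaks (an alternative chosen after seeing the data), 3 sums passed, against 9.38% of genes lower and 26.6% higher: Slc10a1 stood at -1.43 (adjusted p = 0.000973), Slco1a1 at -3.14 (adjusted p = 0.000672) and Abcb11 at -1.01 (adjusted p = 0.000800), and over all peaks they had stood at -1.45, -3.19 and -1.105. The sum of Slco1b2 was 612, 1014, 851 and 865 CPM in KO, against 1242, 1334, 1079, 1227 and 1245 CPM in controls, a log2 change of -0.65 (SE 0.19, adjusted p = 0.0192). The groups did not overlap, but the Slco1b2 call was lost without KO replicate 1 (-0.43, adjusted p = 0.159), in males alone (-0.52, adjusted p = 0.145), with the factors of the sums over all peaks (-0.43, adjusted p = 0.0954) and with library totals as the scaling (-0.31, adjusted p = 0.269), under which the median of all genes was 0.45.

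The sum of Abcc2 without its miR-122-5p peaks was 199, 243, 176 and 159 CPM in KO, against 354, 269, 313, 288 and 171 CPM in controls. The groups overlapped through control replicate 5 (log2 -0.41, SE 0.22, adjusted p = 0.179), and without that library the sum passed (-0.69, adjusted p = 0.0303). With the factors of the sums over all peaks it was -0.19 (adjusted p = 0.541). Abcb4 stood at -0.05 (SE 0.23, adjusted p = 0.887), and at 0.17 (adjusted p = 0.594) with the factors of the sums over all peaks.

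**Figure D3:**
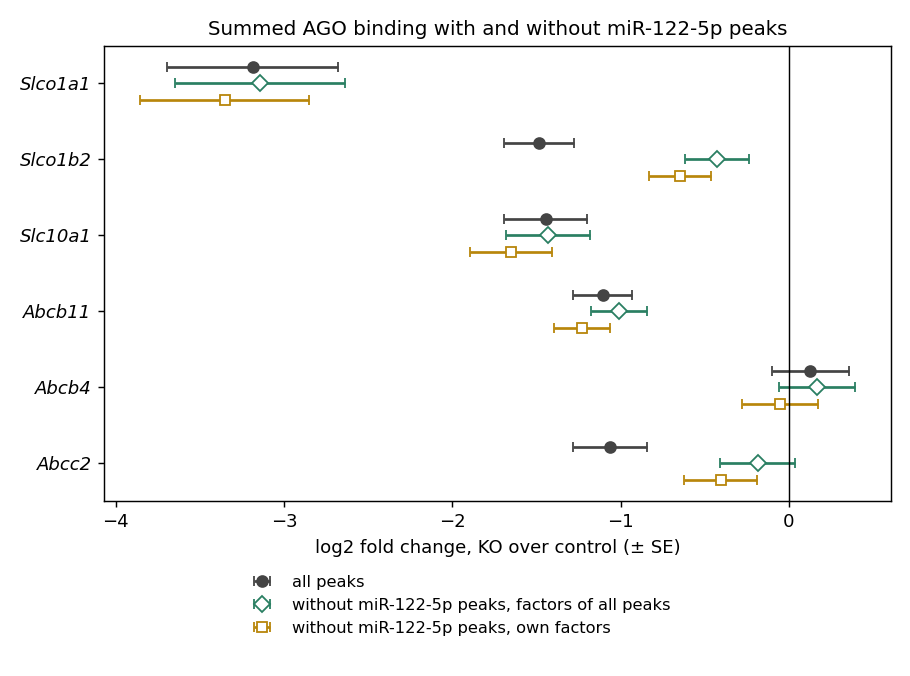
Log2 fold change of the summed AGO-bound reads, KO over control (horizontal axis), with SE bars, for all peaks (filled circles), without miR-122-5p peaks at the same scaling factors (open diamonds) and without them at their own factors (open squares), 1 row per transporter. At the same factors Slco1b2 stood at -0.43 without the peaks and -1.49 with them, and Abcc2 at -0.19 and -1.06, while Slc10a1, Slco1a1 and Abcb11 lay below -1 in all 3 settings.

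Peak by peak, 31 of the 125 had enough reads to be tested; 16 were lower in KO, 0 higher and 15 did not pass. At an unadjusted p under 0.05 the tested peaks higher in KO were also 0 (18 lower), and with upper quartile scaling or with no filter on low counts 1 was higher. Over all 17182 peaks tested, 45.1% passed, 27.6% lower and 17.5% higher. Of the 18 peaks with a miR-122-5p match 6 were tested and 5 were lower, against 90.5% past the threshold among the 3267 such peaks tested in the whole table, 89% lower and 1.5% higher. Of the 107 peaks without one 25 were tested and 11 were lower, against 34.5% past the threshold, 13.2% lower and 21.3% higher, among the 13915 such peaks tested in the whole table. Without KO replicate 1 the lower peaks numbered 10 in place of 16. The 73 peaks neither tested nor named held at most 68 reads each over the 9 libraries.

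**Figure D4:**
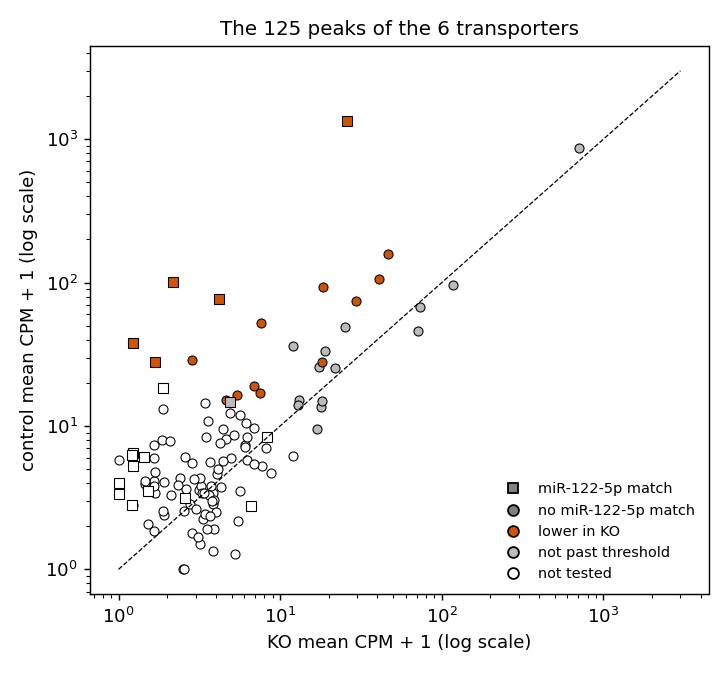
Mean level of each of the 125 peaks, as CPM + 1 on log scales, in KO (horizontal axis) and in controls (vertical axis), squares for peaks with a miR-122-5p match and circles for those without, orange for peaks lower in KO, grey for tested peaks that did not pass and white for peaks not tested; the dashed line marks equal levels. The 5 orange squares lie far above the line, and the peak with the highest mean over all libraries, a grey circle at 710 CPM in KO and 864 CPM in controls, lies close to it.

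The largest miR-122-5p peak of the 6 genes lay in the 3′ UTR of Slco1b2 at chr6:141686230-141686299 (mm10, plus strand), 347 bases before the annotated end of the gene. Its only listed match was a 6mer, the shortest class, 4 bases from the centre of the peak. It held 46, 19, 25 and 10 reads in KO, against 1077, 715, 1342, 1637 and 749 reads in controls. No KO library came near a control: the levels were 25.1 ± 10.9 CPM in KO (n = 4) and 1345 ± 212 CPM in controls (n = 5), a log2 change of -5.61 (SE 0.31, adjusted p = 1e-08). When only 7mer and 8mer matches are counted, this peak drops out and the Slco1b2 share in miR-122-5p peaks differs by -0.296 percentage points in place of -51.6 (exact permutation p = 0.0238).

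The 2 other 3′ UTR peaks of Slco1b2 lie upstream of it within the same UTR. The nearer one, at chr6:141685937-141686006, holds an 8mer match to the miR-29 family and a 6mer to the miR-25 family. It had 454, 860.5, 710 and 815 CPM in KO, against 890, 871, 766, 899 and 892 CPM in controls, which overlap through control replicate 3 (log2 -0.44, SE 0.25, adjusted p = 0.174). With factors from peaks without a miR-122-5p match, which moved the median of all peaks to -0.19, it passed (-0.66, adjusted p = 0.0462). The other, at chr6:141685640-141685709, holds a 7mer-A1 match to miR-194-5p and had 117 ± 17.1 CPM in KO and 95.9 ± 17.8 CPM in controls (log2 0.21, SE 0.23, adjusted p = 0.494). The remaining tested peaks of Slco1b2 were in coding sequence, and none of these passed: those at chr6:141676313-141676382 (-0.76, adjusted p = 0.0870) and chr6:141634478-141634547 (-0.69, adjusted p = 0.120) each hold a match to the miR-148 family, and that at chr6:141685528-141685597 (0.06, adjusted p = 0.910) one to miR-126a-5p. The peak ending at 141676382 passed with factors from peaks without a miR-122-5p match, without the sex term and with the replicate number as a block (adjusted p = 0.0292, 0.0271 and 0.0114). The peak ending at 141634547 did so as well (adjusted p = 0.0413, 0.0479 and 0.0267). Summed over coding sequence alone, Slco1b2 stood at -0.13 (adjusted p = 0.585). None of its coding peaks has a miR-122-5p match. With factors from coding sums without miR-122-5p peaks, the same reads stood at -0.42 (adjusted p = 0.108).

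The other 3 miR-122-5p peaks of Slco1b2 were intronic, with 3 reads in KO and 49 in controls between them, and were too low to be tested. The peak at chr6:141657893-141657962 had no KO read and 10 control reads, at least 3.01-fold lower against a floor of 3 reads over the KO group, and also holds a match to miR-122-3p, the other strand of the same hairpin. The peaks at chr6:141671263-141671332 and chr6:141671723-141671792, each with a 7mer-A1 match, held 2 and 1 reads in KO, against 21 and 18 in controls. The share of Slco1b2 reads in its 3′ UTR was 88.3% ± 2.13 in KO and 93.1% ± 0.854 in controls (exact permutation p = 0.00794), and without the miR-122-5p peaks the difference was 2.36 percentage points with the opposite sign (exact permutation p = 0.214).

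Abcc2 differed from Slco1b2 in where its reads lay: none of its 29 peaks was in a 3′ UTR, and its 8 miR-122-5p peaks were in coding sequence, introns and SINE repeats. Of these, 4 were tested and all 4 were lower in KO, as were 89% of the 3267 such peaks tested in the whole table. The filter on low counts kept all 4 through the controls alone, so their adjusted p values add no support. The peak of coding sequence at chr19:43825825-43825894, with a 7mer-m8 match at its centre, held 1 read in all KO libraries, against 22, 13, 58, 53 and 20 reads in controls. The ratio of control to KO reads after scaling was 154, with a 95% counting interval from 27.2 to 6106 (adjusted p = 4.44e-07). The intronic peak at chr19:43813761-43813830, with a 7mer-A1 match, held 1, 0, 2 and 1 reads in KO, against 61, 57, 174, 109 and 28 reads in controls (log2 -6.14, SE 0.54, adjusted p = 1.55e-07). KO and control levels were thus separated by more than an order of magnitude in both peaks.

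The other tested pair of miR-122-5p peaks in Abcc2 lies nearer the 5′ end. The coding peak at chr19:43798141-43798210, with a 6mer match, had 3.19 ± 2.10 CPM in KO and 75.5 ± 16.2 CPM in controls (log2 -4.41, SE 0.40, adjusted p = 1.86e-07). The intronic peak at chr19:43790039-43790108, with an 8mer match, held 3 reads in KO, all in replicate 1, and 117 in controls (ratio 36.1, 95% counting interval 12.05 to 177.6, adjusted p = 2.04e-05).

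Not all Abcc2 peaks with a listed miR-122-5p match lost their reads. The intronic peak at chr19:43791230-43791299, with a 6mer match at its centre beside an 8mer match to let-7, held 3, 12, 3 and 3 reads in KO, against 1, 0, 0, 7 and 1 reads in controls. The SINE peak at chr19:43801623-43801692, whose match is of the "-B" class, 10 bases from the centre, beside an 8mer to the miR-125 family, held 30 reads in KO and 35 in controls. The intronic peak at chr19:43804258-43804327, whose 6mer match begins at the first base of the peak, held 7 reads in KO and 8 in controls. None of these 3 was tested, and their groups overlapped. The SINE peak at chr19:43802717-43802786, with a 6mer match 4 bases from the centre, held 1 read in KO and 21 in controls and was not tested.

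The Abcc2 peaks without a miR-122-5p match divided. The coding peak at chr19:43796464-43796533, with matches to the miR-130 and miR-19 families, had 8.07, 9.12, 5.12 and 4.09 CPM in KO, against 71.8, 52.6, 68.4, 49.9 and 11.5 CPM in controls. The groups did not overlap, although control replicate 5 lay close to KO (log2 -2.57, SE 0.45, adjusted p = 0.000170). The coding peak at chr19:43811103-43811172, with a miR-30 family match, was also lower (-1.47, SE 0.51, adjusted p = 0.0249; adjusted p = 0.200 without KO replicate 1). The coding peak at chr19:43823374-43823443, with matches to the miR-19 family and miR-22-3p, did not pass (16.4 ± 3.85 CPM in KO and 24.9 ± 6.31 CPM in controls, log2 -0.56, adjusted p = 0.180). The coding peak nearest the 3′ end, at chr19:43837464-43837533 with a miR-26 match, had 72.2 ± 25.5 CPM in KO and 66.8 ± 15.1 CPM in controls (log2 0.32, adjusted p = 0.332). The intronic let-7 peak at chr19:43788125-43788194 had 26.9, 93.1, 89.7 and 73.6 CPM in KO, against 53.5, 28.5, 41.2, 58.4 and 41.7 CPM in controls (log2 0.29, adjusted p = 0.505). Its 3 male KO libraries were above every control and its female KO library below all of them.

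**Figure D5:**
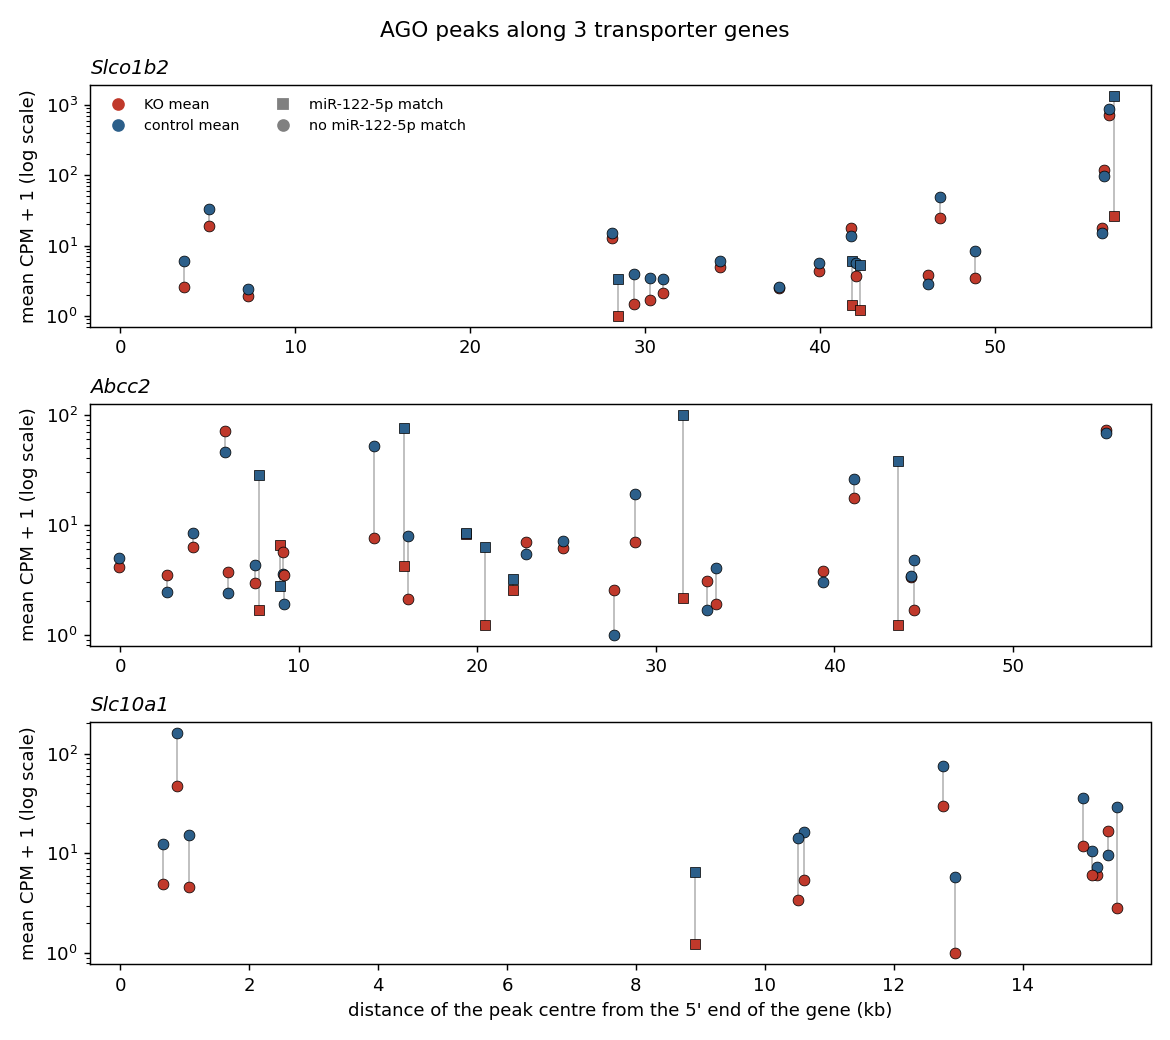
Mean level of every peak, as CPM + 1 on a log scale, against the distance of the peak centre from the 5′ end of the gene in kb, for Slco1b2, Abcc2 and Slc10a1, with KO in red and control in blue, squares for peaks with a miR-122-5p match and circles for those without, and a grey line joining the 2 means of a peak. The long lines at squares mark the 3′ UTR peak of Slco1b2 and 4 peaks spread along Abcc2, and in Slc10a1 most circles lie lower in KO.

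In Slc10a1 the reads without a miR-122-5p match carried the difference. Its single miR-122-5p peak, intronic with a 7mer-m8 match (chr12:80959749-80959818), held 1 read in KO and 22 in controls and was not tested. Of its 7 tested peaks, none with a miR-122-5p match, 5 were lower in KO. Among the 13915 peaks without this match tested in the whole table, 13.2% were lower and 21.3% higher. The coding peak nearest the 5′ end among the well covered ones, at chr12:80967799-80967868 with matches to the miR-15 and miR-103 families, had 46.6, 43.8, 41.8 and 51.1 CPM in KO, against 171.8, 228, 168.5, 140.5 and 83.5 CPM in controls. No KO library reached the lowest control (log2 -1.58, SE 0.28, adjusted p = 0.000182). The coding peaks at chr12:80955909-80955978 (miR-29 family; -1.21, adjusted p = 0.0100, and 0.0613 and 0.0940 without control replicate 4 and KO replicate 1), chr12:80958070-80958139 (let-7; -1.82, adjusted p = 0.0128) and chr12:80967610-80967679 (miR-15 family; -1.58, adjusted p = 0.0118) were lower as well. The coding peak at chr12:80953728-80953797, again with miR-103 and miR-15 family matches, did not pass (-1.26, SE 0.60, adjusted p = 0.102, and 0.0150 without KO replicate 2) and had no read in KO replicate 4. It also passed with no filter on low counts (adjusted p = 0.0117), without the sex term (0.0355) and with the replicate number as a block (0.000989).

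The 3′ UTR of Slc10a1 held neighbouring peaks of opposite direction. The one nearest the end of the gene, at chr12:80953198-80953267, has no listed seed match and held 0, 4, 2 and 1 reads in KO, against 23, 12, 36, 33 and 15 reads in controls. All KO libraries were far below all controls (log2 -3.86, SE 0.54, adjusted p = 1.93e-05). The filter on low counts kept this peak through the controls alone, so its adjusted p adds no support. The next, at chr12:80953312-80953446, with matches to miR-192-5p, miR-22-3p and the miR-17 family, had 12.55, 20.1, 14.5 and 16.3 CPM in KO, against 8.45, 6.58, 11.4, 9.31 and 7.19 CPM in controls. Here every KO library lay above every control, but the difference did not pass (log2 0.78, SE 0.38, adjusted p = 0.113), and with upper quartile scaling it did (1.02, adjusted p = 0.0380). The share of Slc10a1 reads in the 3′ UTR was 21.8% ± 2.28 in KO and 14.7% ± 4.09 in controls (exact permutation p = 0.0238), and with 1 library left out it stayed under 0.05 only without control replicate 5 (exact p = 0.0286; 0.0536 to 0.0714 without each other library).

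Abcb11 reads lay mostly in coding sequence, with 405 of 615 reads in KO and 928 of 1326 in controls. Its best covered peak, at chr2:69296349-69296418 with matches to the miR-148, miR-130 and miR-126a-3p families, had 43.0, 41.1, 35.9 and 38.8 CPM in KO, against 103, 81.2, 105, 99.9 and 138 CPM in controls. The groups did not overlap (log2 -1.44, SE 0.25, adjusted p = 0.000141). The coding peaks at chr2:69282579-69282648 (miR-22-3p 8mer; -1.16, adjusted p = 0.0210) and chr2:69285230-69285299 (let-7 8mer; -1.28, adjusted p = 0.0339) were lower too, with overlapping groups; the first call was lost without control replicate 5 or KO replicate 1, 2 or 3 (adjusted p from 0.0646 to 0.133), without the sex term (-0.75, adjusted p = 0.207) and with the replicate number as a block (-0.29, adjusted p = 0.626), and the second without KO replicate 1, 2 or 3 (adjusted p from 0.0514 to 0.0789).

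The 2 tested 3′ UTR peaks of Abcb11 did not pass. That at chr2:69238304-69238373 (miR-194-5p) had 20.8 ± 7.82 CPM in KO and 24.5 ± 7.03 CPM in controls (log2 -0.13, adjusted p = 0.784), and that at chr2:69238415-69238484 had 11.8 ± 2.48 and 12.97 ± 3.90 CPM (-0.23, adjusted p = 0.656). The share of Abcb11 reads in the 3′ UTR was 28.0% ± 7.004 in KO and 17.5% ± 4.00 in controls (exact permutation p = 0.0317), and with 1 library left out it stayed under 0.05 only without KO replicate 4 (exact p = 0.0179; 0.0571 to 0.0893 without each other library). Summed over 3′ UTR peaks alone, Abcb11 stood at -0.67 (adjusted p = 0.0650). No 3′ UTR peak of Abcb11 has a miR-122-5p match. The same reads passed with factors from 3′ UTR sums without miR-122-5p peaks (adjusted p at most 0.027), an alternative chosen after seeing the data. Its miR-122-5p peaks were an intronic one with a 7mer-A1 match at chr2:69278928-69278997, with 4 reads in KO, all in replicate 1, and 75 in controls, and a coding one with a 6mer at chr2:69245733-69245925 (-1.62, SE 0.66, adjusted p = 0.0564; 0.0321 without control replicate 4 and 0.00762 without KO replicate 3). The first was not tested, and in the second the groups overlapped. The second also passed with factors from peaks without a miR-122-5p match (adjusted p = 0.0331), with no filter on low counts (0.0142) and without the sex term (0.0442).

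None of the 27 peaks of Abcb4 had enough reads to be tested. Its reads numbered 285 in KO and 260 in controls, 113 and 148 of them in introns and 120 and 87 in coding sequence. The single miR-122-5p peak, intronic at chr5:8898475-8898544 with a 7mer-A1 match, held 1 read in KO and 9 in controls. An intronic peak at chr5:8913351-8913420 had every KO library below every control, with 3 reads in KO and 27 in controls, and its listed match was an 8mer to miR-122-3p. The intronic peak next to it, at chr5:8913423-8913492 with a miR-30 family match, held 13 reads in KO and 31 in controls, and both lie under the annotation of another gene, Gm17936. In the other direction, the 5′ UTR peak at chr5:8894078-8894147, with no listed match, held 24 reads in KO and 16 in controls, and the groups overlapped. They also overlapped in the intronic peak at chr5:8913139-8913208 (21 reads in KO and 19 in controls) and the coding peak at chr5:8939841-8939910 (24 and 19 reads).

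In Slco1a1 a single peak passed the filter on low counts, the coding peak at chr6:141911846-141911915 with 7mer-m8 and 8mer matches to the miR-30 family. It held 3, 28, 34 and 6 reads in KO, against 36, 5, 108, 221 and 81 reads in controls. As for the gene sum, the groups overlapped through control replicate 2, the shallowest library (log2 -3.01, SE 0.49, adjusted p = 9.02e-05). The miR-122-5p peaks were an intronic 8mer at chr6:141922360-141922429 with no KO read and 15 control reads, at least 3.91-fold lower against the floor, and a 5′ UTR peak of the "-B" class at chr6:141946883-141946952 with 1 and 10 reads. The best covered of the others were a 3′ UTR peak at chr6:141907336-141907405 (3 reads in KO and 26 in controls), coding peaks at chr6:141918583-141918652 (1 and 12 reads) and chr6:141925587-141925656 (3 and 15 reads), and a 5′ UTR peak at chr6:141946705-141946823 (4 and 33 reads), in all of which the groups overlapped. All 10 peaks of the gene had a fitted change below 0 without the filter on low counts, against 92 of the 125 peaks of all 6 genes. The median log2 change of all 92645 peaks in that fit was 0.25. Of the 10 peaks 9 had too few reads to be tested, and peaks of 1 gene are not replicates.

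Among peaks, the 18 with a miR-122-5p match had every KO library below every control in 10 cases and above in none, where 48.5% and 3.52% of the 10628 such peaks of the whole table did. In the 107 others this was so in 12 cases and 1 case, against 3.49% and 16.5% of the 82017 such peaks. The match classes of the 5 lower miR-122-5p peaks were 8mer, 7mer-m8, 7mer-A1 and, in 2 of them, 6mer. The mean phyloP conservation score of the 6 matched bases, the authors' deposited score, was 0.449 in the Slco1b2 3′ UTR peak, 0.501 in the Abcc2 coding 6mer, 0.248 in the Abcc2 coding 7mer-m8 and below 0 in both lower intronic Abcc2 peaks, where 0 is neutral. The untested intronic Abcc2 peaks with a 6mer scored 0.258 and 0.410. The Abcb11 coding 6mer, whose peak did not pass, scored 1.87.

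Other carriers, and genes related to them, were described from lists. Of 8 other genes listed for sinusoidal uptake, not all of them membrane carriers, 7 were tested, 4 were lower and 1 higher in KO, with a median log2 change of -1.08; over all genes 23.7% were lower and 21.2% higher, with a median of 0.05, and every list count below is to be read against these shares. The lower ones were Slco1a4 (16.9 ± 10.2 and 103 ± 40.35 CPM; log2 -2.13, adjusted p = 0.000175) and Slco2b1 (-1.12, adjusted p = 0.00330), both organic anion transporting polypeptides, and the fatty acid transport proteins Slc27a2 (-1.27, adjusted p = 0.00123) and Slc27a5, the bile acid CoA ligase (-1.08, adjusted p = 0.00432). The monocarboxylate carrier Slc16a1 was higher (0.72, adjusted p = 0.0186). Of 6 sinusoidal efflux genes 3 were tested and 2 were lower, Abcc3, which returns conjugated anions to the blood (149.8 ± 13.6 and 499.9 ± 96.8 CPM; -1.66, adjusted p = 3.4e-05), and Abcc6 (-1.58, adjusted p = 0.000424). Slc51a and Slc51b had no peak in the table.

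Of 10 canalicular genes 7 were tested, 1 was lower and 1 higher, a smaller share than the 44.9% past the threshold over all genes, with a median of -0.35. Abcg8, a subunit of the sterol exporter, was lower (58.4 ± 10.5 and 137 ± 32.0 CPM; -1.18, adjusted p = 0.00146), while its partner Abcg5 stood at -0.03 (adjusted p = 0.950), a difference between the partners that was not tested. Tmem30a, the chaperone of the flippase Atp8b1, was higher (303 ± 186.8 and 76.3 ± 21.2 CPM; 1.75, adjusted p = 0.000726). Of 9 genes for membrane anchors and traffic 8 were tested, 2 were lower, the apical motor Myo5b (-1.31, adjusted p = 0.000364) and Vipas39 (-1.52, adjusted p = 0.000544), and 2 were higher, the apical linker radixin Rdx (0.53, adjusted p = 0.0192) and Rab11a of recycling endosomes (1.30, adjusted p = 0.00113). Their median was 0.25.

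All 10 transcription factors listed for these genes were tested, and 4 were lower and 1 higher, near the share over all genes (44.9%), with a median of -0.58. The bile acid receptor Nr1h4 (-0.84, adjusted p = 0.00408), Hnf4a (-0.85, adjusted p = 0.00381), which is also in the hepatocyte marker list, and the heterodimer partner Rxra (-0.82, adjusted p = 0.0113) were among the lower ones. Nfe2l2, a regulator of detoxifying genes, was higher (0.996, SE 0.22, adjusted p = 0.00274). Over the 5 lists 13 genes were lower and 5 higher of 35 tested (51.4%, against 44.9% of all genes). Without the miR-122-5p peaks 8 were lower and 3 higher of 34 tested (32.4%, against 31.5%), 7 and 3 of them as before, and with the factors of the sums over all peaks 6 and 5. Slc47a1, an exporter of organic cations without a miR-122-5p peak, was lower only at the factors of the remaining sums (-0.74, adjusted p = 0.0121, against -0.52 and adjusted p = 0.0501 over all peaks). Slc16a1, also without such a peak, lost its call there (0.51, adjusted p = 0.110). Among those with a miR-122-5p peak that no longer passed were Abcc3 (-0.46, adjusted p = 0.213), Myo5b (-0.40, adjusted p = 0.259), Nr1h4 (-0.23, adjusted p = 0.450), Hnf4a (-0.49, adjusted p = 0.0785) and Rxra (-0.07, adjusted p = 0.857).

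Across the 9 libraries, the genes whose level followed each transporter most closely, by Pearson r of log2(CPM + 1) over all genes tested, were Pank1 (0.989) and Zcchc4 (0.982) for Slc10a1, Ghr (0.978) and Cdc23 (0.949) for Slco1a1, and Tmem41b (0.992) and Lpcat3 (0.990) for Slco1b2. For the exporters they were Saa4 (0.994) and Gapvd1 (0.985) for Abcb11, Amotl1 (0.954) and Nop58 (0.894) for Abcb4, and Ndrg2 (0.983) and Cpped1 (0.980) for Abcc2. These values describe 9 libraries of 2 genotypes that also differ in depth, and any gene that separates the genotypes alike can score high.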

How the data were processed

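The submitters' processing notes name Bowtie2 and the build mm10, with no version or role; the sources used here do not say how peaks were called, duplicates handled and reads assigned (strand included). Values were deposited as read counts per peak and library, not normalized, per the file headers, on 143524 rows for 92645 unique peaks. Annotation, gene names and seed matches were used as deposited; the authors' deposited log2 value per peak was not used, and the deposited phyloP score describes single matches. Of all counts, 11.1% lay in peaks without a gene, which entered the test of peaks and not that of genes.

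Counts of peaks, of genes (summed over peaks) and of genes without peaks matching miR-122-5p (any class, "-B" included) were each tested over the whole table with edgeR 4.0.16 in R 4.3.3 (TMM, filterByExpr, glmQLFit, glmQLFTest; genotype and sex as terms; 9 libraries), with Benjamini-Hochberg adjustment at 0.05. The filter keeps a row through either group, so rows near 0 in KO had to differ. Shares of a gene's reads were compared by two-sided exact permutation of libraries in 11 unadjusted tests. Folds against a group without reads are against 3 reads over that group, and intervals cover counting error only, since amplified reads are not independent molecules. The libraries came from separate mice per the labels, and no pair of replicates agreed within sampling noise (chi-square over degrees of freedom, 2.67 to 10.6). On simulated counts the gene test recovered 76.2% of genes at a log2 fold of -2 and 10.9% at -1 (8856 genes), and the peak test 50% and 3.1% (17182 peaks). Few of the simulated rows were changed, with the same fixed dispersion for all, whereas 44.9% of genes passed in the data. These rates may therefore not hold for the data, and absent calls at small changes carry little weight. Alternatives were other scalings, DESeq2 1.42.0, no filter, other covariates and samples left out.

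The transporters, the gene lists and the markers were chosen with earlier results of these data known. Peaks named were all transporter peaks with a miR-122-5p match and the 5 other best covered peaks of each gene, with 4 further tested peaks counted, 2 of them named after their values were seen; of the lists, all genes that passed except 1 that is not reported here; and for each transporter the 2 genes most correlated with it.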

Additional observations from a re-analysis of the deposited data

Results flagged for a closer look

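In 100 groups of 4 or 5 libraries a sample lay far from the others in 9, and chance would give about 1 in 20. Among gene sums without miR-122-5p peaks, control replicate 5 had 409.8 CPM of Abcb11, against 295.7 CPM in the next control. In the shares of reads in miR-122-5p peaks, a single KO library had any such read in Slco1a1 (KO replicate 3, 2.381%), Slc10a1 (KO replicate 2, 0.621%) and Abcb4 (KO replicate 4, 2.381%), the other 3 being at 0 each time. KO replicate 1, the female KO library, had 41.24 CPM in the Slco1b2 3′ UTR miR-122-5p peak, where the next KO library had 21.35 CPM, and 2.689 CPM in the Abcc2 intronic peak with a miR-122-5p 8mer, where the others had no read. KO replicate 2 held the single read (0.9125 CPM) of the Abcc2 coding peak with a 7mer-m8 match. KO replicate 4 had 2.043 CPM in the Abcb11 coding let-7 peak, against 7.685 CPM in the next KO library. Control replicate 3 had 766 CPM in the Slco1b2 3′ UTR miR-29 peak, against 870.8 CPM in the next control. A peak with 1 to 3 KO reads in all meets this rule whenever they fall in 1 library.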

How the results depend on the processing

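Over all peaks, Slco1a1, Slc10a1 and Abcc2 kept their direction and their side of the threshold under every alternative run. Slco1b2 did not pass over coding peaks alone (-0.13), nor Abcb11 over 3′ UTR peaks alone (-0.67), where the transporters that passed numbered 2 in place of 5 (Slco1a1, Abcb4 and Abcc2 were not tested there). The same Abcb11 reads passed with factors from 3′ UTR sums without miR-122-5p peaks. Abcb4, never past the threshold, changed sign with factors from rows without a miR-122-5p match (-0.25), in females alone (-0.33) and among single libraries left out (-0.10 to 0.43).
Without miR-122-5p peaks, Slco1b2 did not pass with library totals (-0.31), in males alone (-0.52), over coding peaks (-0.42) or with the factors of the sums over all peaks (-0.43; both chosen after seeing the data), and ran from -0.79 to -0.43 with single libraries left out. Its coding reads at -0.42 are the same as those at -0.13 above, under other scaling factors. Abcb4 turned positive with library totals (0.29), in males alone (0.13), with only 7mer and 8mer peaks left out (0.0053) over coding peaks (0.35) and with the factors of the sums over all peaks (0.17), and ran from -0.27 to 0.23 with single libraries left out. Abcc2 passed with only 7mer and 8mer peaks left out (-0.71) and ran from -0.69 to -0.25 with single libraries left out.
Whether the replicate numbers pair the mice is not known. Same-numbered libraries of the groups correlated at -0.0231, -0.00311, -0.0769 and 0.0143, but correlations over all genes cannot exclude a pairing by litter or handling. The mouse id labels of most same-numbered libraries are adjacent. With the number as a replicate block, Abcc2 without miR-122-5p peaks passed (-0.74, adjusted p = 0.0146), no sum over all peaks changed its call, and 16 transporter peaks were lower, 13 of them shared with the 16 of the fit with sex.
Lower peaks numbered 35 with no filter and 10 to 19 with single libraries left out; 1 was higher with upper quartile scaling and 1 with no filter. Listed genes numbered 8 lower and 3 higher without miR-122-5p peaks.
Shares in miR-122-5p peaks in males alone, where no exact p can be under 0.1, differed by -49.7 points (Slco1b2), -42.6 (Abcc2), -0.63 (Slc10a1) and -5.77 (Abcb11). With only 7mer and 8mer matches Slco1a1 reached exact p = 0.0476 (-2.05 points). With single libraries left out the ranges were -1.32 to -0.916 points (Slc10a1), -7.86 to -5.40 (Abcb11) and -3.72 to -2.44 (Abcb4, exact p = 0.0357 without KO replicate 4). Shares in the 3′ UTR ran from 5.66 to 8.35 points (Slc10a1), 8.78 to 13.8 (Abcb11) and -2.02 to 2.29 (Abcb4), and without miR-122-5p peaks stood at 2.36 points for Slco1b2, the opposite sign, and 9.63 for Abcb11, which no longer passed (exact p = 0.0635).
Of 497 alternatives for 27 named peaks, 447 kept direction and call, 15 lost and 19 gained the call, and 16 changed sign, all in 6 peaks never past the threshold. These were the Slco1b2 coding peak ending at 141685597 (-0.16 with factors from rows without a miR-122-5p match, -0.0479 with no filter, -0.15 in males, -0.0325 to 0.1671 with single libraries left out) and 3′ UTR peak ending at 141685709 (-0.0151 and -0.12 with those factors and in males). They were also the Abcb11 3′ UTR peaks ending at 69238373 (0.11 with upper quartile factors, 0.23 in females, -0.301 to 0.0146 with single libraries left out) and 69238484 (0.0071 with upper quartile factors, 0.10 in females, 0.0136 with the replicate block, -0.3852 to 0.0056 with single libraries left out), and the Abcc2 let-7 (-0.58 in females) and miR-26 peaks (-0.0494 with the replicate block). The cause was not tested.
Over the whole table, the split of lower and higher genes was 2100 and 1878, and 3037 and 1124 with factors from rows without a miR-122-5p match (median -0.33 in place of 0.05). Without miR-122-5p peaks it was 1075 and 1488, 590 and 2498 with library totals (median 0.45 in place of 0.11) and 763 and 2164 with the factors of the sums over all peaks (median 0.33). It was 1349 and 1198 with factors from rows without a miR-122-5p match and 1242 and 1272 with upper quartile factors. For peaks it was 4745 and 3007, 4331 and 4219 with upper quartile scaling (median 0.26 in place of 0.03).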
